A study of Mus musculus with 3 samples.

Results

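The nuclear genes for the mitochondrial respiratory chain were taken by name from GENCODE M21 on the mouse genome build GRCm38, as protein-coding genes whose symbol begins with Nduf (complex I), Sdh (complex II), Uqcr (complex III), Cox4 to Cox8 (complex IV) or Atp5 (ATP synthase, complex V). The rule gave 98 gene entries with 97 distinct symbols, of 21951 protein-coding genes in all. The symbol Atp5o stands for 2 overlapping entries. The rule reads names, so it also takes in 12 assembly factors, which help to build complexes I and II without staying in them, and a few other proteins that are not subunits.

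The data come from RAW264.7, an established mouse macrophage cell line, kept untreated and profiled in 3 replicates of 1 condition. In miCLIP2, poly(A)+ RNA is crosslinked by UV light to an antibody against N6-methyladenosine (m6A), and the ends and mismatches of the resulting cDNA place the modified adenosine. A trained classifier, m6Aboost, then gives each candidate A a prediction score, and the list holds the 19301 positions with a score of at least 0.5, pooled over the replicates. There are no counts, no coverage and no values per replicate in it, so neither depth nor the variation over replicates is known for any site, and no test between conditions or replicates could be made. The organism label is mouse although the text describing the series names the line as human, and every listed site reads as A on GRCm38. Of 10 macrophage marker genes, 6 carried at least 1 site, 60% (95% Wilson interval 31.3 to 83.2) against 23.1% of all protein-coding genes, with most on Cd14 (13 sites), Csf1r (11 sites) and Spi1 (6 sites). Their median spliced length was 2913.5 nt, and a site is no measure of expression.

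The respiratory chain passes electrons from NADH through complex I, or from succinate through complex II, by way of coenzyme Q to complex III, and then by cytochrome c to complex IV, where oxygen is reduced. Complexes I, III and IV pump protons across the inner mitochondrial membrane, and ATP synthase uses their return to make ATP. Most subunits are translated in the cytosol from nuclear mRNAs, which are the transcripts described here, while a core set is made inside mitochondria. Macrophages are known to shift the balance between respiration and glycolysis when they are activated. m6A is written co-transcriptionally, mainly at adenosines in the motif DRACH, where D is A, G or T, R is A or G and H is A, C or T.

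Of the 98 entries, 33 held at least 1 predicted m6A site in their span on the same strand, which is 33.7% (95% Wilson interval 25.1 to 43.5). The other 65 entries, 66.3% (56.5 to 74.9), held none. Over all protein-coding genes, 23.1% (22.6 to 23.7) held a site and 76.9% (76.3 to 77.4) held none. A respiratory chain gene was thus listed with a site somewhat more often than a protein-coding gene in general, with intervals that did not overlap. Without the 12 assembly factors the share was 27 of 86, 31.4% (22.6 to 41.8), and the interval included the share over all protein-coding genes. At a minimum score of 0.7 the shares came to 19.4% of the respiratory chain entries (12.8 to 28.3) and 19.0% of all protein-coding genes. At a minimum of 0.9 they were 6.12% and 6.20%. The excess lay in the low part of the score range. Intervals here cover counting error only, and neither genes nor sites are replicates. No expression level or coverage was analysed here, so a transcript without m6A and a transcript with too few reads cannot be told apart in a gene with no site.

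**Figure D1:**
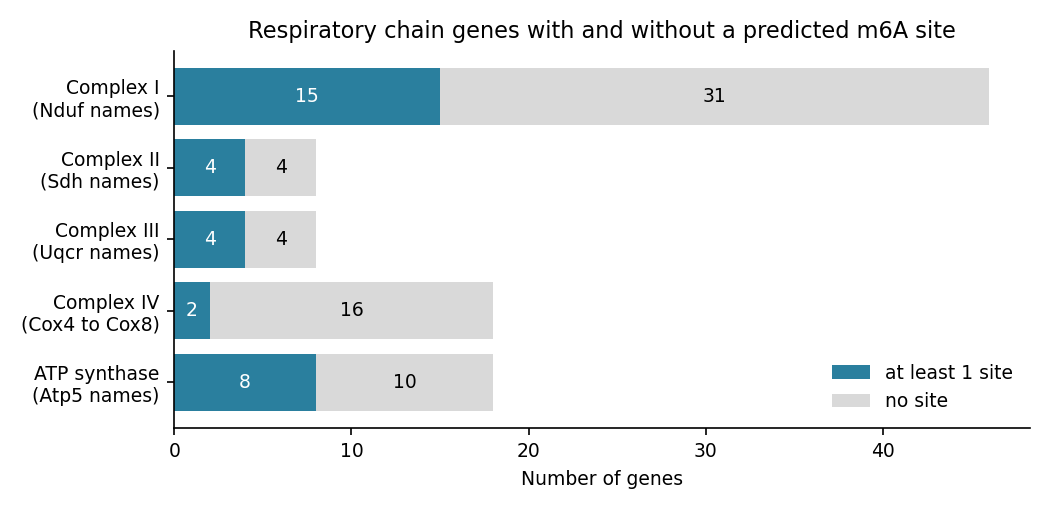
Number of respiratory chain gene entries (horizontal axis) in each of the 5 name families, split into entries with at least 1 predicted m6A site and entries with none. The Cox names stand lowest, with 2 of 18 entries carrying a site, and the Nduf names hold the most entries, 15 with a site and 31 without.

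These genes held 59 sites, 0.306% of the list. All 59 lay in an annotated exon of a respiratory chain gene, and 5 of them also lay in the span of another gene on the same strand (in Ndufa13, Ndufb9, Cox4i1 and Atp5o). Few sites fell on each transcript. Of the entries with a site, 48.5% had 1 site, 33.3% had 2, 18.2% had 3 to 5, and none had 6 or more. Among all protein-coding genes with a site these shares were 25.9%, 19.5%, 31.9% and 22.7%. The most sites in any entry, 5, were on Sdhaf2.

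The windows below show the bases around the sites on which the description turns, each 21 nt long on GRCm38, read 5′ to 3′ on the strand of the gene, with the 5 bases centred on the called A in capitals. The first group holds 6 sites scored at 0.88 or more. They lie in assembly factors of complexes I and II, in subunits of complexes III and V and in the supercomplex factor Cox7a2l. The Ndufa2 site in this range of scores is not printed.
Uqcrfs1, chr13:30540712-30540732, minus strand: agacacgtGGACTcagggcct
Ndufaf4, chr4:24901837-24901857, plus strand: agaaacatGGACTgctgagaa
Ndufaf4, chr4:24901818-24901838, plus strand: ataaccatAAACTctctccag
Sdhaf2, chr19:10502944-10502964, minus strand: atggatagAAACTgcttctgg
Atp5o, chr16:91925264-91925284, minus strand: gctctgagAGACTgtcacctg
Cox7a2l, chr17:83502282-83502302, minus strand: gggcctcgGGACTcaggcggt
The 6 shown end their motif in ACT, and the base before the A is G in 4 of them and A in the Ndufaf4 and Sdhaf2 windows with AAACT.

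The second group holds the 5 sites whose motif is not DRACH.
Sdhaf1, chr7:30321969-30321989, minus strand: gatccgatGGACGgtgacaga
Uqcrfs1, chr13:30541108-30541128, minus strand: ctgctgacGTACTggccatgt
Cox4i1, chr8:120673981-120674001, plus strand: catccctcATACTttcgatcg
Atp5e, chr2:174463976-174463996, minus strand: atggtggcGTACTggcgacag
Atp5h, chr11:115419938-115419958, minus strand: acttccggCAACTctcttccg
Each departs from DRACH at a single base, which is the last one in Sdhaf1, the first one in Atp5h and the second one in the windows of Uqcrfs1, Cox4i1 and Atp5e. Their scores were 0.551 for Sdhaf1, 0.625 for Uqcrfs1, 0.652 for Cox4i1, 0.541 for Atp5e and 0.509 for Atp5h, all under the median of the 59 sites.

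The third group shows sites that lie next to an exon junction, where the genomic window runs into the intron. The bases that the spliced mRNA carries are given beside the genomic ones.
Ndufb10, chr17:24722648-24722668, minus strand, genomic: tggagaagGGACTtgtacgta
Ndufb10, spliced: tggagaagGGACTtcaaagtt
Atp5b, chr10:128085433-128085453, plus strand, genomic: ttaaactaGGACTctttggag
Atp5b, spliced: ggaaaatcGGACTctttggag
Atp5j2, chr5:145184526-145184546, minus strand, genomic: cttacaagGAACTcagtaagt
Atp5j2, spliced: cttacaagGAACTcaaacatg
The called A of Atp5b is 1 nt from the junction, that of Ndufb10 is 3 nt from it and that of Atp5j2 is 4 nt from it. In these and in 2 further windows (Ndufa13 and Ndufv1), the 5 bases of the motif read the same before and after splicing, and only the flanks change.

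Over the respiratory chain as a whole, 54 of 59 sites were at DRACH, 91.5% (81.6 to 96.3), against 92.0% of the sites in all protein-coding genes. The leading motifs were GGACT with 10 sites, AGACT with 9, GAACT with 7 and TGACT with 5. Motifs ending in ACT made up 66.1% of the sites, and 61.6% over all protein-coding genes. GGACA, the most frequent motif ending in another base over all protein-coding genes with 13.2% of sites, held 4 respiratory chain sites, 6.78% (2.67 to 16.2). The motif is an input of the classifier, so these shares are not independent of the score.

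The median prediction score was 0.699, the quartiles were 0.624 and 0.832, and single sites lay between 0.508 and 0.965. Over all protein-coding genes the median was 0.734 and the quartiles 0.627 and 0.832. A score of at least 0.7 was given to 28 of 59 sites, 47.5% (35.3 to 60.0), against 58.1%, and a score under 0.6 to 13 sites, 22.0%, against 19.6%. Nearest to the threshold of 0.5 were the sites of Atp5f1 (0.508) and Atp5h (0.509). The score is the classifier's certainty about a position and not the share of mRNA molecules methylated there.

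**Figure D2:**
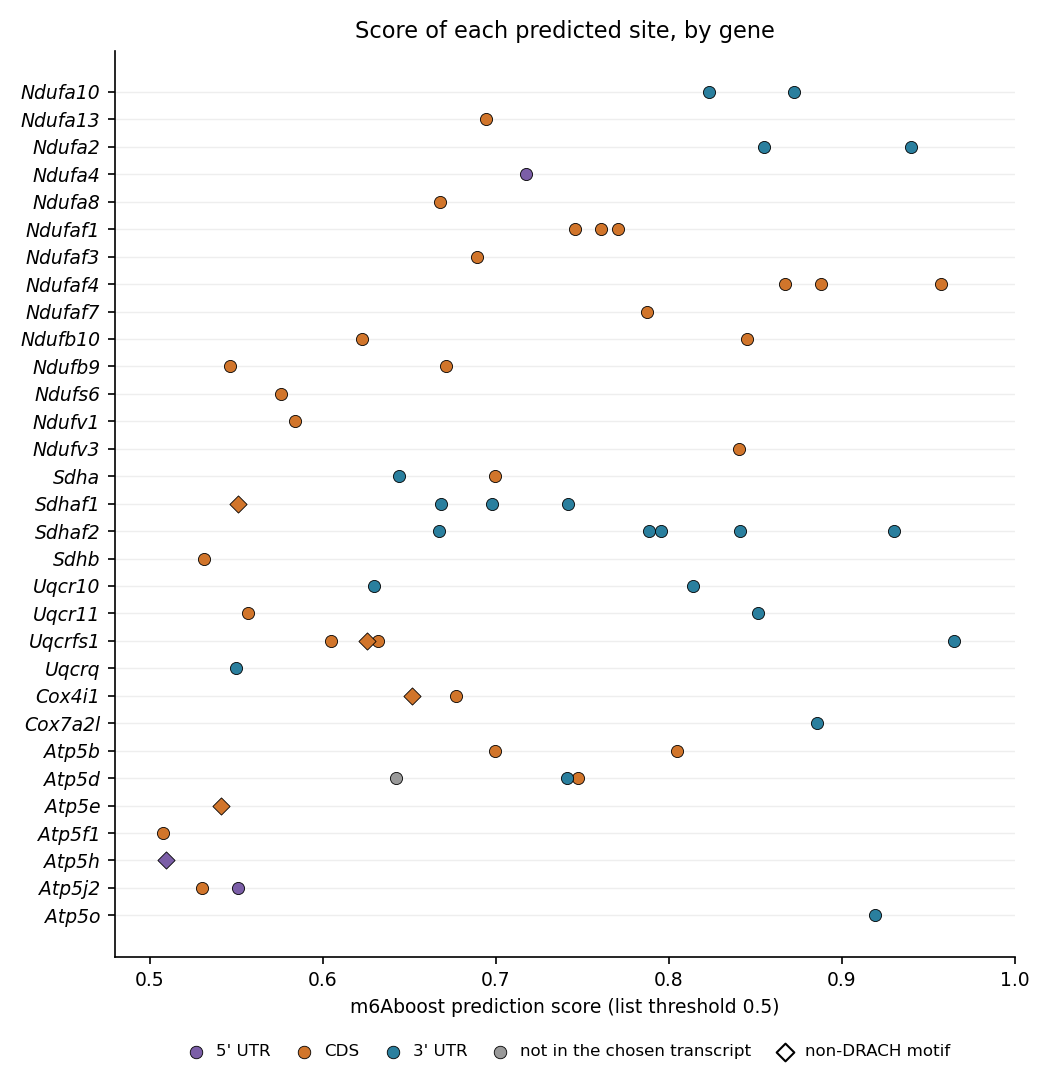
m6Aboost prediction score of each site (horizontal axis, no unit, the list begins at 0.5) for the respiratory chain genes with a site, 1 gene not shown. Points are coloured by the part of the transcript and diamonds mark motifs other than DRACH. The 5 sites above 0.9 are on Uqcrfs1, Ndufaf4, Ndufa2, Sdhaf2 and Atp5o, and the 5 diamonds all lie below 0.7.

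Complex I takes electrons from NADH and is the largest of the complexes. Its 7 core subunits with nuclear genes carry the flavin and the iron-sulphur clusters. Of these 7, 2 had a site, 28.6% (8.22 to 64.1), near the 23.1% of all protein-coding genes. Ndufv1, which binds the flavin and NADH, had 1 site at chr19:4011352 in exon 2, 6 nt from a junction, with a score of 0.584. Ndufs1 and Ndufv2 were among the 5 core genes with none. Ndufs1, the largest of the core subunits, has a spliced transcript of 2661 nt in 19 exons with 66 exonic DRACH positions, of which only 10 are at least 100 nt from any junction. Ndufv2 has 41 exonic DRACH positions on 1697 nt, of which 22 are at least 100 nt from any junction.

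Of the 29 other subunits of complex I, which surround the core, 8 had a site, 27.6% (14.7 to 45.7), near the 23.1% of all protein-coding genes. Ndufa10 carried 2 sites in its 3′ UTR, at chr1:92439776 (score 0.872) and chr1:92439636 (score 0.823), 65 nt and 205 nt after the stop codon. Ndufa2 likewise carried 2 sites in its 3′ UTR, with scores of 0.940 and 0.855, at 18 nt and 48 nt after the stop codon, both at DRACH motifs. Ndufv3, a subunit of the NADH-binding module, had 1 site with a score of 0.841 in exon 3, which at 1092 nt was the longest internal exon with a site in this set. Ndufb10 had a site of score 0.845 at chr17:24722658 beside the junction shown above and a further site of score 0.623 in exon 1.

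The remaining sites of these subunits had lower scores. Ndufa13 had 1 site (0.695) in exon 2, 7 nt from a junction, which also lies in the span of Yjefn3. Ndufa8 had 1 site (0.668) located 6 nt before the stop codon, Ndufb9 had 2 coding sites (0.671 and 0.546), and Ndufs6 had 1 site (0.576) at nucleotide 32 of the transcript. Ndufa4 bears a complex I name but is now counted as a subunit of complex IV, and it had 1 site (0.718) in the 5′ UTR, at nucleotide 29. The 21 subunits of complex I outside the core that had no site included Ndufb2 and Ndufab1, 2 genes picked here after their values were seen, whose chosen transcripts hold 92 and 83 exonic DRACH positions.

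The assembly factors of complexes I and II held more sites per gene than the other entries. Of 12 such genes 6 had a site, 50% (25.4 to 74.6), against 23.1% of all protein-coding genes. The 12 genes held 17 sites in all or 1.42 per gene, whereas the 86 other entries had 42 sites, 0.488 per gene. The 21951 protein-coding genes together held 19180 sites. Ndufaf4, which helps to assemble the arm of complex I that binds coenzyme Q, had 3 coding sites in its last exon, 19 nt and 35 nt apart, at chr4:24901828, chr4:24901847 and chr4:24901882, with scores of 0.888, 0.957 and 0.867. Ndufaf1 had 3 sites in exon 2, 658 nt long, also within a short stretch, with scores of 0.771, 0.761 and 0.746. Ndufaf7, a protein arginine methyltransferase, had 1 site (0.788) at 88 nt before the stop codon, and Ndufaf3, a partner of Ndufaf4, had 1 site (0.689) at 33 nt before it. Sdhaf2, needed to attach flavin to Sdha, carried 5 sites in its 3′ UTR between 47 nt and 394 nt after the stop codon, with scores of 0.930, 0.795, 0.789, 0.841 and 0.668 in that order. Sdhaf1, which helps to put iron-sulphur clusters into Sdhb, has a single exon of 2490 nt and carried 4 sites with scores of 0.742, 0.698, 0.668 and 0.551. The assembly factors also have longer transcripts (median 1478 nt) than the other entries (median 781 nt), and the part of length in their counts was not tested. Sdhaf3, named here after its values were seen, has the most exonic DRACH positions of all entries without a site, 114 on 4323 nt.

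Complex II oxidises succinate and also belongs to the citric acid cycle, and 2 of its 4 subunits had a site, 50% (15.004 to 84.996 against 23.1%). Sdha, the flavoprotein, had a coding site of score 0.699 at chr13:74327259, 12 nt from a junction, and a site of score 0.644 in the 3′ UTR, 676 nt after the stop codon. That is the site farthest downstream of a stop codon in the set. Sdhb, the iron-sulphur subunit, had 1 coding site (0.532) in exon 7. The membrane anchors Sdhc and Sdhd had none, on transcripts with 51 and 23 exonic DRACH positions.

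Complex III hands electrons from coenzyme Q to cytochrome c, and 4 of the 8 Uqcr genes had a site, 50% (21.5 to 78.5), an interval that includes the 23.1% of all protein-coding genes. Uqcrfs1, the Rieske iron-sulphur protein, had the site with the highest score of the whole set, 0.965, at chr13:30540722, 11 nt after the stop codon. Its 3 other sites lay upstream in the coding sequence of the same exon and scored much lower, at 0.632, 0.605 and 0.625. Of the small subunits, Uqcr11 had a 3′ UTR site of score 0.852 and a coding site of 0.557, Uqcr10 had 3′ UTR sites of 0.814 and 0.630 only 4 nt apart, and Uqcrq had 1 site of 0.550 at 21 nt after the stop codon. The core proteins Uqcrc1 and Uqcrc2, named here after their values were seen, had none.

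Complex IV reduces oxygen, and of the 5 name families the Cox names had the fewest sites, with Ndufa4 counted under the Nduf names. Of 18 Cox entries, 2 had a site, 11.1% (3.10 to 32.8), with 3 sites in all. The interval includes the 23.1% of all protein-coding genes, and 10.7% of all protein-coding genes under 1000 nt had a site. Cox4i1, the widely expressed form of a regulatory subunit, had 2 coding sites in its last exon with scores of 0.652 and 0.677, both also in the span of Gm20388. Cox7a2l, which joins complexes III and IV in supercomplexes and is not a regular subunit, had 1 site of score 0.886 at 313 nt after the stop codon. Cox5a, Cox5b and Cox6c had none. None of the 7 isoforms known for restricted tissue expression (Cox4i2, Cox6a2, Cox6b2, Cox7a1, Cox7b2, Cox8b and Cox8c) had a site, a share of 0 of 7 with a Wilson upper bound of 35.4%. The Cox entries are also the shortest family, with a median spliced length of 652 nt.

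ATP synthase has a catalytic head that is turned by a central stalk and held by a peripheral stalk, and 8 of 18 Atp5 entries had a site, 44.4% (24.6 to 66.3). With the position in Atp5o counted for 1 of its entries only, the share was 7 of 17, 41.2% (21.6 to 63.99), an interval that includes the 23.1% of all protein-coding genes. Atp5b, the catalytic beta subunit, had a coding site with a score just under 0.7 in exon 5, at the junction shown above, and one of 0.805 in exon 9. Atp5a1, the alpha subunit of the same head, had none on 2674 nt with 42 exonic DRACH positions. In the central stalk, Atp5d had 3 sites (0.642, 0.748 and 0.741) and Atp5e had 1 (0.541), while Atp5c1 had none. In the peripheral stalk, Atp5o had 1 site of score 0.919 at chr16:91925274, 6 nt after the stop codon. The longer of the 2 entries named Atp5o holds this same position in an intron, so both entries count as having a site. Atp5f1 (0.508) and Atp5h (0.509), also of the peripheral stalk, had 1 site each. Atp5j2, a small membrane subunit, had sites of 0.531 and 0.551. None of the 3 genes for the membrane ring, Atp5g1, Atp5g2 and Atp5g3, had a site. Atp5g1, named here after its values were seen, has 103 exonic DRACH positions.

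To place the sites on mRNA, the longest complete coding transcript with good support was chosen for each gene, which was possible for 94 of the 98 entries. Atp5f1, Sdhaf1, Ndufs7 and the longer Atp5o entry had none that passed. On the chosen transcripts, 53 of the 59 sites were exonic. The coding sequence held 32 of them, 60.4% (46.9 to 72.4), the 3′ UTR 18, 33.96% (22.7 to 47.4), and the 5′ UTR 3, 5.66% (1.94 to 15.4). Over all protein-coding genes the shares were 49.3%, 48.1% and 2.38%. Sites lay near the stop codon: 27 were within 200 nt of it, 50.9% (37.9 to 63.9), against 33.3%, and the median distance was 146 nt against 404 nt. Of the exonic DRACH positions of these genes, 30.6% lie within 200 nt of it, and 13.04% of those over all protein-coding genes do. Per 1000 exonic DRACH positions in that window, 35.0 (23.8 to 51.1) were called in respiratory chain genes and 34.7 (33.8 to 35.7) in all protein-coding genes. The classifier also takes the transcript region as an input.

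**Figure D3:**
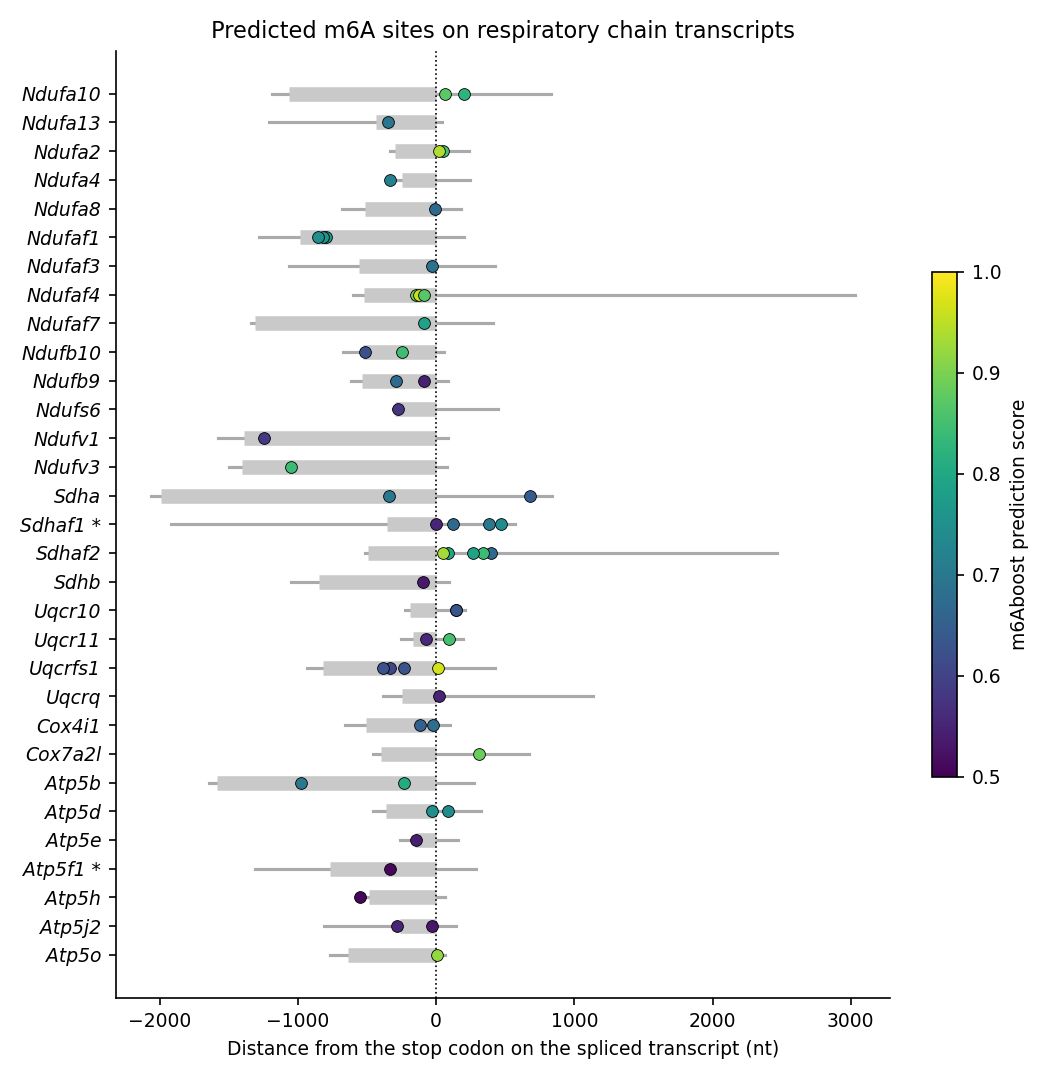
Position of each site relative to the stop codon (horizontal axis, nt on the spliced transcript, negative is upstream) for the genes with a site, 1 gene not shown. Grey lines are transcripts, thick grey bars coding sequences, and colour gives the prediction score from 0.5 to 1. An asterisk marks a transcript that did not pass the support filter and is drawn for position only. The 3 sites of Ndufaf4 and the brightest sites of Sdhaf2, Uqcrfs1, Ndufa2 and Atp5o lie within 200 nt of the stop codon, and the 5 sites of Sdhaf2 spread from 47 nt to 394 nt after it.

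The architecture of these genes differs from that of protein-coding genes in general. The median spliced length was 849.5 nt (quartiles 623.5 and 1512.5) against 2703 nt, the median coding sequence 409.5 nt against 1215 nt, the median 3′ UTR 188.5 nt against 887 nt and the median last exon 287.5 nt against 1211 nt. The median number of exonic DRACH positions was 19 against 55. Among respiratory chain genes, those with a site had a median length of 1135.5 nt and 20.5 DRACH positions, and those without had 750.5 nt and 17. Both groups ranged widely, from 421 nt to 3632 nt with a site and from 360 nt to 4715 nt without.

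In the 3 classes of length under 4000 nt, a larger share of the respiratory chain genes carried a site than of all protein-coding genes of that length. Under 1000 nt, 14 of 55 had a site, 25.5% (15.8 to 38.3), against 10.7% (9.30 to 12.3). From 1000 nt to under 2000 nt, 12 of 27 had one, 44.4% (27.6 to 62.7), against 20.7% (19.5 to 22.0). From 2000 nt to under 4000 nt the interval was wide, with 4 of 9 genes or 44.4% (18.9 to 73.3) against 28.9%. None of the 3 genes of at least 4000 nt had a site, against 33.8% of all protein-coding genes of that size. In the 2 shorter classes the intervals did not overlap. They did at a minimum score of 0.7, where the shares were 12.7% (6.30 to 24.0) against 7.11% (5.97 to 8.46) under 1000 nt and 25.9% (13.2 to 44.7) against 15.5% (14.4 to 16.6) in the next class. Expression was not analysed here, and its part in these shares was not tested.

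**Figure D4:**
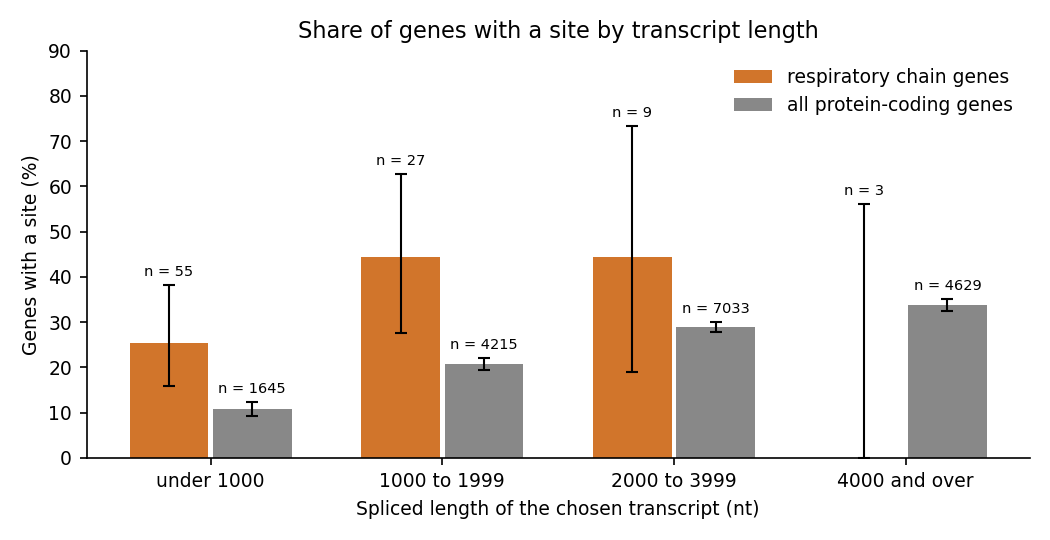
Share of genes with at least 1 site (vertical axis, percent) by the spliced length of the chosen transcript, for respiratory chain genes and all protein-coding genes. Bars are shares, error bars 95% Wilson intervals and n the number of genes. Under 1000 nt the shares are 25.5% and 10.7%, and above 4000 nt no respiratory chain gene of 3 has a site.

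The sites also differed in their place relative to exon junctions. Of the 53 exonic sites, 21 lay within 100 nt of a junction, 39.6% (27.6 to 53.1), while over all protein-coding genes 12.8% (12.3 to 13.4) did. Exons other than the last and shorter than 200 nt held 14 sites, 26.4% (16.4 to 39.6), against 4.41% (4.11 to 4.73). These included the sites of Ndufv1 in an exon of 83 nt, of Sdha in one of 112 nt, of Atp5j2 in one of 117 nt, of Sdhb in one of 123 nt and of Ndufb10 in one of 139 nt. The last exon held 32 sites, 60.4%, against 71.1%. At a minimum score of 0.7, a limit chosen here after seeing the data, 5 of 27 sites were near a junction, 18.5% (8.18 to 36.7), against 8.75% (8.20 to 9.32), and the intervals overlapped. They included sites on Ndufb10, Uqcr11, Atp5b and Atp5d.

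The number of motifs was then taken into account. Per 1000 exonic DRACH positions within 100 nt of a junction, 17.1 (10.8 to 26.8) were called in respiratory chain genes and 4.43 (4.24 to 4.63) in all protein-coding genes. At a minimum score of 0.7 these densities were 4.74 (2.03 to 11.1) and 1.87 (1.75 to 2.00). At 100 nt or more from any junction and with no higher limit on the score they were 24.2 (17.1 to 34.1) and 19.5 (19.2 to 19.8). Among transcripts under 1000 nt, the density near junctions was 21.7 (11.5 to 40.7) in respiratory chain genes and 4.42 (3.50 to 5.58) in all protein-coding genes. A high density near junctions was not found for the respiratory chain alone. The cytosolic ribosomal protein genes, also short, had 28.4 (19.2 to 42.0) near junctions and 8.81 (4.27 to 18.1) away from them, whereas the mitochondrial ribosomal protein genes had 8.95 (4.54 to 17.6) near junctions and 46.5 (38.4 to 56.2) away from them.

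**Figure D5:**
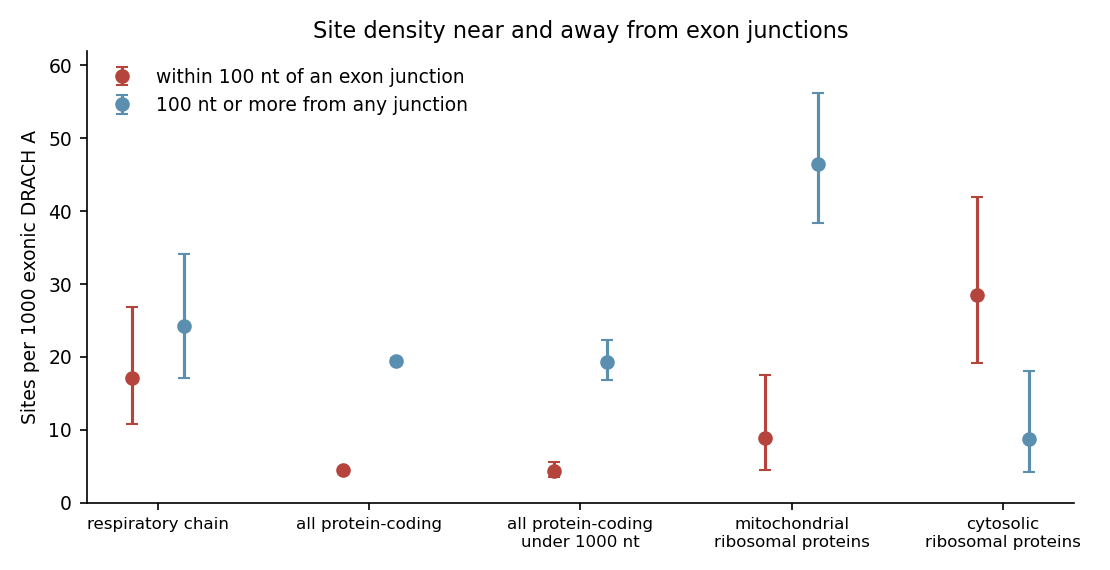
Predicted sites per 1000 exonic DRACH positions (vertical axis) within 100 nt of an exon junction and at 100 nt or more from any junction, for 5 sets of genes. Points are densities and bars 95% Wilson intervals, which cover counting error only. Near junctions the respiratory chain lies at 17.1 and all protein-coding genes at 4.43, and only the cytosolic ribosomal protein genes are denser near junctions than away from them.

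Sites near junctions had lower scores. Their median was 0.652 in respiratory chain genes (21 sites on 16 genes), against 0.788 for the 32 sites on 18 genes farther away. Over all protein-coding genes the medians were 0.655 and 0.747. Coding sites had a median of 0.683 and 3′ UTR sites one of 0.832, against 0.698 and 0.787 over all protein-coding genes. Among the exceptions close to a junction was Ndufb10 (0.845). The sites on Ndufa4, Ndufs6 and Atp5h, of which the last 2 are also within 100 nt of a junction, fell in the first 50 nt of their transcript, which is 3 sites or 5.66% (1.94 to 15.4) against 0.193% over all protein-coding genes. The scores of these 3 were 0.718, 0.576 and 0.509. The Atp5h site, at a motif other than DRACH, was not placed on its gene's principal transcript. In mouse embryonic stem cells the paper reports signal at transcript starts that did not respond to knockout of the methyltransferase Mettl3. The part of such signal in these 3 sites was not tested.

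The authors kept only reads that mapped to 1 place in the genome. For each exonic DRACH position the 32 nt downstream, where a truncated read would begin, were searched in the whole genome, and any exact match elsewhere, a processed copy of the gene or a repeat, was counted as a copy. In respiratory chain genes 245 of the 2253 positions that were checked had one, and those held 1 site, 4.08 per 1000 positions (0.721 to 22.8). The 2008 positions without a copy held 48 sites, 23.9 per 1000 (18.1 to 31.5). Over all protein-coding genes these densities were 5.24 (4.75 to 5.78) and 14.3 (14.1 to 14.5). The site with copies was that of Uqcr11 at chr10:80403095, with 2 further matches. At least 1 copied position was found in 55.3% of the respiratory chain genes and in 52.3% of all protein-coding genes. In 8 of the 94 genes, 8.51% against 6.43%, more than 50% of the positions had a copy. A site was carried by 3 of these 8, 37.5% (13.7 to 69.4), and by 15 of the 42 genes with no copied position, 35.7% (22.99 to 50.8). Over all protein-coding genes these shares were 11.8% (10.0 to 13.8) and 25.2% (24.3 to 26.2). Of the 52 respiratory chain genes with any copied position, 15 had a site, 28.8% (18.3 to 42.3). Of the 8, Uqcr11, Cox7a2l and Atp5h had a site, while Ndufs3, Ndufs5, Uqcrb, Atp5g2 and Atp5l had none. In Atp5g2 all 7 positions that were checked had a copy.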

How the data were processed

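The miCLIP2 libraries came from poly(A)+ RNA of 3 untreated RAW264.7 replicates. Per the study's methods and the submitters' processing notes, reads were mapped to GRCm38 with STAR 2.7.3a, with only uniquely mapped reads kept, sorted with SAMtools 1.9 and deduplicated by molecular identifiers with UMI-tools 1.0.0. The notes also name bedtools 2.27.1. Peaks called in each replicate by PureCLIP on reads without C-to-T transitions had to be present in at least 2 replicates. The authors deposited 1 pooled list of sites, whose only measurement is the m6Aboost prediction score of at least 0.5. The list carries no depth, so no precision can be given for a single site.

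Positions were converted to 1-based and set against GENCODE M21 (55450 genes), whereas the study worked with GENCODE M23, also on GRCm38. The members and lists were chosen with earlier results of these data known. A site belonged to each gene whose span held it on its strand. The transcript was the longest spliced complete coding one with a transcript support level of at most 3 and an annotation level of at most 2. Shares carry 95% Wilson intervals. With 1 condition and 1 pooled list, no test was made. Named genes were chosen from all members with a site, the core subunits, the catalytic head and Cox5a, Cox5b and Cox6c among those without, the 3 nearest to the threshold, and the 3 genes with most sites of each other list. Some genes that this rule covers are not reported here. Any other member was named after its values were seen. The search for copies was tested on a simulated sequence. The position code was checked against the annotated coding and total lengths of a random sample of the chosen transcripts. Alternatives covered minimum score, motif, transcript, gene assignment, membership and uniqueness of sequence. Sequences were read from the GRCm38 genome. Python 3.11.15, NumPy 2.4.6, SciPy 1.17.1, pysam 0.24.0, samtools 1.23.1 and matplotlib 3.10.9 were used.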

Additional observations from a re-analysis of the deposited data

How the results depend on the processing

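The count of respiratory chain entries with a site fell from 33 to 19 at a minimum score of 0.7 and to 6 at 0.9, and the count of sites from 59 to 28 and 5. The DRACH share of the sites rose from 91.5% to 100% at both minimum scores, and was 78.0% with RRACH, where the first base is A or G, in place of DRACH. The 3′ UTR share rose from 33.96% to 51.9% at 0.7 (n = 27 sites) and to 80% at 0.9 (n = 5 sites). Sites per 1000 exonic DRACH positions fell from 20.985 to 11.6 at 0.7. The share of exonic sites within 100 nt of a junction fell from 39.6% to 18.5% at 0.7 (n = 27 sites) and was 37.9% on principal transcripts. All other alternatives moved a value by less than its counting interval or a count by less than 1.5 times. Entries with a site numbered 32 when each site had to be exonic or went to the longest gene on its strand, and 26 of 83 without the assembly factors and other proteins that are not subunits. With the assembly factors alone left out, the share was 31.4% (22.6 to 41.8), which no longer lay above the 23.1% of all protein-coding genes by its interval. The 3′ UTR share was 35.3% and 36.2% with other transcripts. Chosen after seeing the data were a transcript for every gene regardless of support (3′ UTR share 36.2%) and the limit to DRACH positions without a copy elsewhere (23.9 per 1000). The alternatives for the junction share were also chosen after seeing the data.

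No paired analysis was possible because the replicates were pooled into 1 list of 1 condition, and for the same reason no replicate was left out. What depth limits cannot be stated, since the list gives no reads and no expression was analysed here.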

Other observations

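Other genes that serve the respiratory chain were set beside its subunits, as counts of genes with a site, against 23.1% over all protein-coding genes. Genes tied in their number of sites were named by their highest score. Factors for the assembly of complex I outside the Nduf names had a site in 7 of 10 genes, 70% (39.7 to 89.2), with a median length of 2274 nt. They were led by Tmem186, Foxred1 and Dmac1 with 3 sites each. Factors for complex IV assembly and copper delivery had one in 11 of 23, 47.8% (95% Wilson interval 29.2 to 67.0), against 11.1% of the Cox entries themselves (3.10 to 32.8, intervals that overlap), with median lengths of 1387 nt and 652 nt. They were led by Pet117 and Coa7 with 5 sites each and Taco1 with 4. For complexes III and V the count was 2 of 10, 20% (5.67 to 51.0), Uqcc3 with 3 sites and Uqcc1 with 1. None of 8 genes around cytochrome c had a site (upper bound 32.4%). In coenzyme Q synthesis, 4 of 13 had one, 30.8% (12.7 to 57.6), with 5 sites on Coq4, 4 on Coq9 and 3 on Coq5. The intervals of these last 3 lists include the share over all protein-coding genes.

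Among regulators of mitochondrial biogenesis, 14 of 22 genes had a site, 63.6% (43.0 to 80.3). They held 70 sites, with 15 on the mitochondrial DNA helicase gene Twnk, 13 on the coactivator gene Pprc1 and 10 on Hcfc1. These are long transcripts, with a median of 4160 nt. The citric acid cycle had sites in 13 of 19 genes, 68.4% (46.0 to 84.6), with a median length of 2544 nt. Ogdh had 5 sites, Dlst 3 and Dld 2 among other genes with 2. Protein import had sites in 16 of 29 genes, 55.2% (37.5 to 71.6), with a median length of 1790 nt. It was led by Grpel1 (8), Timm29 (6) and Gfer (4). Over all protein-coding genes the share was 23.1% and the median length 2703 nt. The part of length in these counts was not tested. Coa1 and Pc had no entry under these symbols in the annotation.

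Mitochondrial ribosomal protein genes, with a median length of 1302 nt, had a site in 49 of 78, 62.8% (51.7 to 72.7), with 129 sites and a median score of 0.784. Mrpl9 held 7 of them, Mrpl10 and Mrps2 6 each. Under 1000 nt the share was 60% (40.7 to 76.6) against 25.5% (15.8 to 38.3) for respiratory chain genes of that length. Cytosolic ribosomal protein genes had one in 26 of 84, 31.0% (22.1 to 41.5), with a median score of 0.654. Rpl7l1, an Rpl7-like gene that this list includes, led with 4 sites, before Rpl13a and Rpl12 with 3 each. More than 50% of the exonic DRACH positions had a copy elsewhere in 58.5% of the cytosolic ribosomal protein genes and in 8.51% of the respiratory chain genes. Of the 13 protein genes encoded in mitochondrial DNA, 1 had a site, 7.69% (1.37 to 33.3). This was mt-Nd5, with a score of 0.582 at a motif other than DRACH.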
